A study of Mus musculus with 6 samples.

Results

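The genes described here are 10 transcription factors of the adipogenic cascade, namely *Cebpa*, *Cebpb*, *Cebpd*, *Cebpg*, *Klf4*, *Klf5*, *Klf15*, *Ebf1*, *Ebf2* and *Zfp467*. They were chosen by name from the 56884 genes of each library, and all 10 were among the 15426 genes tested. RNA was sequenced from an immortalized mouse cell line made from the stromal vascular fraction (SVF) of subcutaneous white adipose tissue (scWAT). The cells carried a retrovirus for HA-tagged mouse PPARγ2, the adipogenic nuclear receptor, with a lysine changed either to glutamine (K382Q, a mimic of the acetylated receptor) or to arginine (K382R, a mimic of the deacetylated receptor), written PPARr2 in the labels. Both groups were puromycin-selected stable lines, had 3 biological replicates each and were collected after 2 days of beige differentiation in the same medium with IBMX, indomethacin, dexamethasone, insulin, triiodothyronine and rosiglitazone. The endogenous *Pparg* gene was not removed in either, and no library of unmodified or empty-vector cells was analysed, so each difference below is between the 2 mutants only. The sources used here do not say whether the replicates of a mutant came from separately infected lines, and the p-values measure the spread between these libraries.

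Adipogenesis is classically drawn as a relay of transcription factors. The inducing mix of a cAMP-raising agent and a glucocorticoid turns on C/EBPβ and C/EBPδ within hours, with KLF4 acting upstream of C/EBPβ and KLF5 downstream of both, and these early factors then switch on PPARγ and C/EBPα, which sustain each other and drive the genes of the lipid-filled cell. KLF15 accumulates later in the same program and is known for inducing the insulin-sensitive glucose transporter. EBF1 and EBF2 mark and commit adipocyte precursors, EBF2 being known for its part in brown and beige identity, ZFP467 (ZNF467) is a zinc finger cofactor that favours the adipocyte fate, and C/EBPγ is a partner that lacks a strong activation domain of its own.

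The proximal promoters of the 4 genes that passed the test are shown with that of *Cebpb*, the early C/EBP gene, because the motifs through which the inducing signals and the C/EBP proteins are known to act can be looked for in them. Each was read from the GRCm39 genome as the 250 bases upstream of the canonical transcript start in GENCODE mouse release 39, and the longest stretch of that window outside any annotated exon is printed 5′ to 3′ on the strand of the gene. Capitals mark the letters TGACG (the core of a cAMP response element), TTGCNNAA (a loose C/EBP motif) and CACGTG (an E-box), each on either strand.
*Cebpb*, chr2:167530585-167530834, plus strand: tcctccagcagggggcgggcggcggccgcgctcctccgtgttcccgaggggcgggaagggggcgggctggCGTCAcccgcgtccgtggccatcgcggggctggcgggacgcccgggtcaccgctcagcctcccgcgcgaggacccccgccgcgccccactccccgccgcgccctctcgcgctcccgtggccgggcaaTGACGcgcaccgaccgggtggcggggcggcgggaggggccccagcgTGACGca
*Cebpd*, chr16:15705085-15705149, plus strand: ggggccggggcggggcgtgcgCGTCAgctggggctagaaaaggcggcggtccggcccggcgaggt
*Cebpa*, chr7:34818478-34818576, plus strand: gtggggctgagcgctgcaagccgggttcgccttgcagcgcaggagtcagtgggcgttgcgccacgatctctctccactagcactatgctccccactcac
*Klf15*, chr6:90439196-90439366, plus strand: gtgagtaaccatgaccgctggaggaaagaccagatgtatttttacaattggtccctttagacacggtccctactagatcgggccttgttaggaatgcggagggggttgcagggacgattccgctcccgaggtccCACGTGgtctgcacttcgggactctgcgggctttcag
*Ebf1*, chr11:44507888-44508137, plus strand: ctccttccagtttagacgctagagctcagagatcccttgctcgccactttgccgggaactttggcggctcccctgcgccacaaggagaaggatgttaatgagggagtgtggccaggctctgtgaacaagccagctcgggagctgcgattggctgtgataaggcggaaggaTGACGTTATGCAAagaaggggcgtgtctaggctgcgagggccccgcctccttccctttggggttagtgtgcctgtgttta

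The whole *Cebpb* window held TGACG 3 times, starting 180, 53 and 7 bases before the transcript start, and the *Cebpd* window held it once, starting 44 bases before. In *Ebf1* a TGACG 80 bases before the start ran directly into the loose C/EBP motif, which began 75 bases before the start. *Klf15* held CACGTG at 111 and 55 bases before the start, of which the printed stretch shows the first. None of these exact letters occurred in the *Cebpa* window, though its printed stretch holds TTGCGCCA, a near match to TTGCNNAA that was not counted. Over the 10 factors, TGACG was found in 4 windows, the fourth being *Klf4*, and in 18.0% of the 21770 protein-coding promoters of the same length. TTGCNNAA was found in 1 of 10 windows and in 9.34% of all promoters, and CACGTG in 2 of 10, the other being *Klf4*, and in 6.26%. The C/EBP palindrome TTGCGCAA, which is a special case of TTGCNNAA, the full cAMP response element TGACGTCA, which contains TGACG, the CACCC box CCACACCC and the nuclear receptor hexamer AGGTCA were in none of the 10 windows and in 0.165%, 1.69%, 3.56% and 13.1% of all promoters. GGGCGG, the GC box, was found in 5 of 10 windows and in 36.3% of all promoters, and the EBF motif TCCCNNGGG in 2 of 10 and in 6.18%. These exact matches describe the letters of a short window and do not show binding. The lack of a match does not show that a site is absent.

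The deposited values were TPM, relative transcript abundances that correct for transcript length and can be compared between genes within a library. Aligned sequence was estimated as the most common ratio of coverage to FPKM among genes with an FPKM above 1. Of those genes, 16.5% to 16.95% in a library shared that ratio. This estimate was 5.96, 7.50 and 5.95 Gb for the K382Q libraries and 7.79, 8.15 and 6.53 Gb for the K382R libraries, and between 22663 and 23837 genes had a value above 0. Changes were tested with limma on log2(TPM + 0.5), and a gene was called when its Benjamini-Hochberg adjusted p was under 0.05. Of all genes tested, 48.1% were called, 36.9% as lower and 11.1% as higher in the PPARγ2K382Q-overexpressing cells, and the median gene had a log2 fold change of -0.14. Scaling the libraries to a median ratio moved that median to 0.0032 and the share of calls that were higher from 23.2% to 49.2%. Changes of the called factors are therefore also given below relative to the median gene. For the factors not called, that value was 0.23 (*Cebpb*), -0.02 (*Klf4*), 0.12 (*Klf5*), 0.17 (*Ebf2*), 0.23 (*Zfp467*) and 0.07 (*Cebpg*).

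Among the 10 factors, *Cebpa*, *Cebpd* and *Ebf1* fell and *Klf15* rose in PPARγ2K382Q-overexpressing cells compared with PPARγ2K382R-overexpressing cells, and 6 did not pass the test. The late factors moved in opposite directions, *Cebpa* being 1.76-fold lower and *Klf15* 1.70-fold higher, while of the 4 early factors *Cebpd* alone passed. The count of 4 called factors, 3 lower and 1 higher, stands beside 48.1%, 36.9% and 11.1% among all genes tested, so that being called did not set the factors apart. No factor changed more than 2-fold with an adjusted p under 0.05, a threshold passed by 3.88% of all genes, although 4 had an unadjusted p under 0.05. The median absolute log2 fold change was 0.13 over the 10 factors and 0.23 over all genes tested. Values of K382Q and K382R libraries did not overlap for 5 factors, the 4 called ones and *Cebpg*, and did not overlap for 57.0% of all genes.

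**Figure D1:**
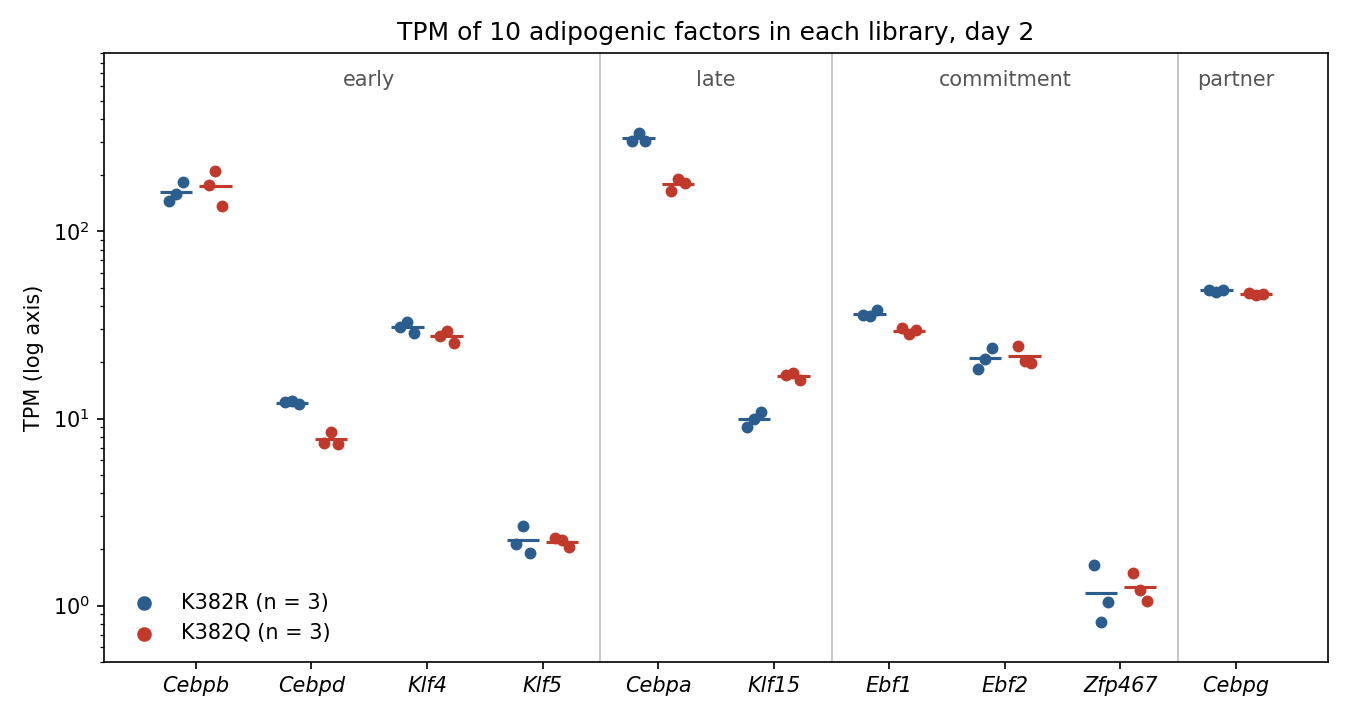
TPM of the 10 factors in each of the 6 libraries on a log axis, grouped by their place in the cascade, with K382R in blue and K382Q in red and a line at the mean of the 3 libraries. *Cebpa*, *Cebpd* and *Ebf1* sit lower and *Klf15* sits higher in every K382Q library than in any K382R library.

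The early factors were at very different levels. *Cebpb*, which encodes the C/EBP protein that starts the relay, is a single-exon gene at chr2:167530835-167532338 of GRCm39 (ENSMUSG00000056501.4). Its TPM was 176.7, 210.9 and 137.6 in the K382Q libraries and 145.6, 159.3 and 182.9 in the K382R libraries. The ranges overlapped, with both the highest and the lowest value in a K382Q library. Mean levels were 175 ± 36.7 and 163 ± 18.9 TPM (SD, n = 3), a log2 fold change of 0.09 with an SE of 0.148 and a limma adjusted p of 0.651. The 95% confidence interval of the fold ran from 0.839 to 1.35, so these libraries excluded neither a fall nor a rise within it. *Cebpb* shares 312 exonic bases with *Peds1* on the opposite strand, and whether the authors counted by strand is not given in the sources used here. *Peds1*, shown for this overlap, was at 51.4 ± 5.61 and 41.5 ± 1.37 TPM (log2 fold change 0.30, limma adjusted p 0.0141).

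*Cebpd* encodes the other early C/EBP protein, a glucocorticoid-induced one, from a single exon at chr16:15705150-15708895 (ENSMUSG00000071637.6). It measured 7.398, 8.472 and 7.315 TPM with K382Q and 12.21, 12.38 and 11.93 TPM with K382R. Every K382Q library lay below every K382R library, and the 3 K382R values were close together. The means, 7.73 ± 0.645 and 12.2 ± 0.225 TPM (SD, n = 3), differed by a log2 fold change of -0.63 (SE 0.0753, limma adjusted p 0.000335), which was 1.57-fold lower with K382Q and -0.49 relative to the median gene. *Cebpd* shares 563 exonic bases with *Spidr* on the opposite strand. *Spidr*, also shown for its overlap, went the other way, from 23.0 ± 1.65 TPM with K382R to 29.9 ± 0.953 TPM with K382Q (log2 fold change 0.37, limma adjusted p 0.0015). The part of this overlap in the values of *Cebpd* was not tested. Within a library, the log2 ratio of *Cebpd* to *Cebpb* was -4.58, -4.64 and -4.23 with K382Q and -3.58, -3.69 and -3.94 with K382R, a mean difference of -0.75.

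*Klf4*, a pluripotency factor that also acts at the start of adipogenesis (chr4:55527143-55532466, ENSMUSG00000003032.9), was at 27.64, 29.49 and 25.27 TPM with K382Q and at 30.73, 32.83 and 28.61 TPM with K382R. 1 value of each mutant fell within the other's range. Mean levels of 27.5 ± 2.12 and 30.7 ± 2.11 TPM gave a log2 fold change of -0.16 (SE 0.0721, 95% confidence interval -0.33 to 0.01, limma adjusted p 0.106), close to that of the median gene. *Klf5*, which works after the early C/EBP proteins (chr14:99536127-99552472, ENSMUSG00000005148.9), was near the bottom of the set at 2.293, 2.239 and 2.054 TPM with K382Q and 2.141, 2.651 and 1.913 TPM with K382R. The K382Q values all lay inside the K382R range. Its means of 2.2 ± 0.125 and 2.24 ± 0.378 TPM had a listed coverage of 3.10 to 5.44 per base, and the log2 fold change was -0.01 with a 95% confidence interval of -0.34 to 0.31 (limma adjusted p 0.948).

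The late factors carried the widest differences of the set. *Cebpa* encodes C/EBPα, the factor that holds the adipocyte program together with PPARγ, from a single exon at chr7:34818718-34821353 (ENSMUSG00000034957.11). Its TPM was 164.1, 192.0 and 181.3 in the K382Q libraries and 304.3, 336.9 and 304.4 in the K382R libraries. A wide gap separated the groups, with the highest K382Q library far under the lowest K382R library. From 315 ± 18.8 TPM with K382R the level was 179 ± 14.1 TPM with K382Q (SD, n = 3), a log2 fold change of -0.81 (SE 0.0642, 95% confidence interval -0.96 to -0.67, limma adjusted p 3.95e-05) and a mean TPM lower by 43.2%. Relative to the median gene the log2 fold change was -0.68, and 4.73% of the genes tested had a log2 fold change as low or lower. The coverage listed for the gene was 380 to 922 per base. It shares 51 exonic bases with the long noncoding RNA *Gm45091* on the opposite strand.

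*Klf15*, the late Krüppel-like factor and itself a glucocorticoid-induced gene, spans chr6:90439558-90452220 (ENSMUSG00000030087.12). It was at 17, 17.53 and 16.13 TPM with K382Q and at 9.026, 9.926 and 10.86 TPM with K382R. All K382Q libraries were above all K382R libraries. The means were 16.9 ± 0.705 and 9.94 ± 0.915 TPM (SD, n = 3), a log2 fold change of 0.74 (SE 0.0779, 95% confidence interval 0.56 to 0.92, limma adjusted p 0.000171), which was 0.87 relative to the median gene. *Klf15* was the only factor of the 10 called higher, and 97.1% of the genes tested had a lower log2 fold change.

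Of the 3 commitment factors, 1 passed the test. *Ebf1*, an early B-cell factor that is also expressed through the adipocyte lineage (chr11:44508144-44898918, ENSMUSG00000057098.15), was at 30.33, 28.39 and 29.70 TPM with K382Q and 35.59, 35.37 and 38.01 TPM with K382R. The groups did not overlap, though the distance between them was small. Its level fell from 36.3 ± 1.46 to 29.5 ± 0.992 TPM, a log2 fold change of -0.30 (SE 0.0477, limma adjusted p 0.00146) and of -0.16 relative to the median gene. *Ebf2*, the beige-selective relative (chr14:67470741-67668367, ENSMUSG00000022053.14), measured 24.53, 20.34 and 19.87 TPM with K382Q and 18.36, 20.87 and 23.88 TPM with K382R. These values were interleaved, and the means of 21.6 ± 2.56 and 21.0 ± 2.77 TPM gave a log2 fold change of 0.04 (95% confidence interval -0.22 to 0.30, limma adjusted p 0.807). *Zfp467* (chr6:48404631-48422759, ENSMUSG00000068551.13) was the least abundant factor, at 1.5, 1.211 and 1.061 TPM with K382Q and 1.649, 0.8206 and 1.050 TPM with K382R. The K382Q values lay within the K382R range, the coverage listed for it was 0.509 to 1.01 per base, and the 95% confidence interval of its log2 fold change of 0.09 reached from -0.41 to 0.59 (limma adjusted p 0.753). Listed coverage is not proportional to TPM across genes, and that of *Zfp467* was low for its TPM beside *Klf5*, so it may understate the reads behind the gene. *Ebf2* shares exonic bases with the noncoding *Gm20675* and *Gm10860* on the opposite strand.

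*Cebpg*, the dimer partner (chr7:34745847-34755998, ENSMUSG00000056216.10), had the tightest values. They were 46.77, 45.62 and 46.58 TPM with K382Q and 48.89, 47.37 and 48.95 TPM with K382R, without overlap between the groups. The means of 46.3 ± 0.619 and 48.4 ± 0.892 TPM differed by a log2 fold change of -0.06 (SE 0.0351, 95% confidence interval -0.14 to 0.02), which did not pass the test (limma adjusted p 0.184) and had the opposite sign, 0.09, when libraries were scaled to a median ratio. *Cebpg* shares exonic bases with the noncoding *Gm44836* on its own strand and *Gm45095* on the opposite one.

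**Figure D2:**
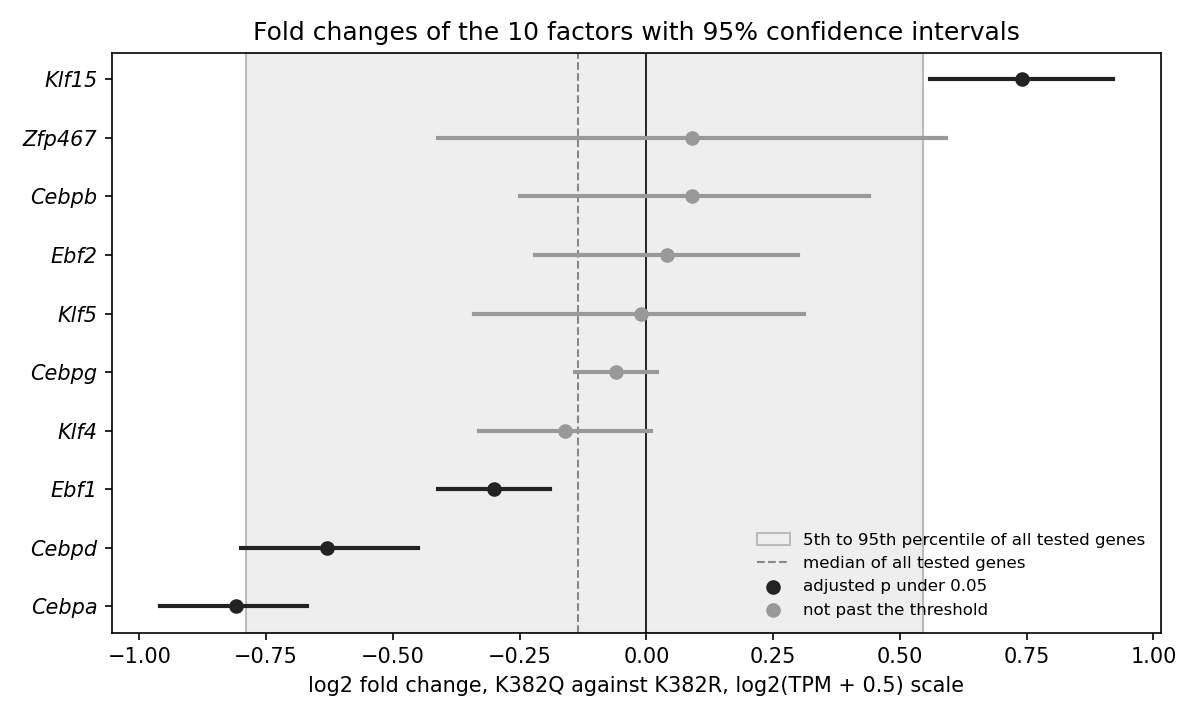
Log2 fold change of each factor, K382Q against K382R, with its 95% confidence interval from limma (n = 3 libraries per mutant), the 5th to 95th percentile of all genes tested (-0.79 to 0.55) as a grey band and their median (-0.14) as a dashed line. *Cebpa* at -0.81 and *Klf15* at 0.74 lie outside the band, on opposite sides.

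As all libraries were bulk RNA, fewer cells expressing a gene and less RNA per cell cannot be told apart. Cell type markers were counted against 11.1% higher and 36.9% lower among all genes tested, and 19.8% and 20.4% under median-ratio scaling. All 5 fibroblast and preadipocyte markers tested of 6 were lower with K382Q, with a median log2 fold change of -0.88, and all 5 were lower under median-ratio scaling and quantile normalization too (medians -0.74 and -0.75). Their summed level was 508 to 552 TPM with K382Q and 866 to 903 TPM with K382R. Of 6 adipocyte markers, 3 were higher and 2 lower, against 4 and 1 under median-ratio scaling and 1 and 2 under quantile normalization, and their summed level was 53100 to 56900 TPM with K382Q and 43500 to 44800 TPM with K382R. Smooth muscle and pericyte markers summed to 8.46 to 8.99 TPM and 17.9 to 19.4 TPM (1 higher and 1 lower of 3 tested, 2 and 1 under median-ratio scaling). That difference lay in *Acta2*, at 0.764 ± 0.0824 TPM with K382Q and 13.2 ± 1.02 TPM with K382R, while *Des* was the marker called higher, at 5.0 ± 0.475 and 3.2 ± 0.398 TPM. The adipocyte sum was mostly *Fabp4*, at 47900 ± 2100 and 37800 ± 617 TPM, and the fibroblast and preadipocyte sum was mostly *Ly6a*, at 467 ± 26.9 and 767 ± 17.6 TPM. These 4 markers were named after their values were seen. With K382Q and K382R, mesothelial and epithelial markers summed to 0.265 to 0.456 TPM and 2.31 to 2.78 TPM (both of the 2 tested lower, beside 36.9% of all genes, and both under median-ratio scaling). The part of these differences in the levels of the 10 factors was not tested. Blood and vessel cell markers were scarce in both mutants, at sums of 3.46 to 5.18 TPM for macrophage and leukocyte markers, of which *Adgre1* was at 0 in all libraries, and 1.63 to 2.23 TPM for endothelial markers. The transgene's own gene also differed: *Pparg*, whose reads can come from the vector or the endogenous locus and cannot be told apart, was at 1333, 1164 and 1104 TPM with K382Q and 1590, 1632 and 1612 TPM with K382R (log2 fold change -0.43, limma adjusted p 0.000977). Listed coverage of *Pparg* was low for its TPM, at 66.4 to 122 per base. On Western blots the paper describes the 2 mutant proteins as present at largely similar levels. The part of the *Pparg* difference in the *Cebpa* difference was not tested.

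Because the deposited TPM of a library all share a total, the balance between early and late factors was also read as ratios within each library, which do not depend on how libraries are scaled to each other. These ratios are descriptions and were not tested. *Cebpa* was at 0.929, 0.911 and 1.32 times the TPM of *Cebpb* in the K382Q libraries and at 2.09, 2.12 and 1.66 times in the K382R libraries. The mutants did not overlap, with means of 1.05 ± 0.23 and 1.96 ± 0.254, and the mean log2 difference of -0.91 stayed between -1.08 and -0.81 when any 1 library was left out. For the Krüppel-like pair the order was turned around. *Klf15* was at 7.41, 7.83 and 7.85 times the TPM of *Klf5* with K382Q and at 4.22, 3.74 and 5.67 times with K382R, a mean log2 difference of 0.78 that ranged from 0.65 to 0.95 without any 1 library.

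The late factors diverged most from each other. *Cebpa* exceeded *Klf15* 9.65, 11.0 and 11.2 times with K382Q but 33.7, 33.9 and 28.0 times with K382R. The log2 ratio of *Klf15* to *Cebpa* differed by 1.59 between the mutants, and by 1.52 to 1.68 without any 1 library. Averaged as a class, on the log2(TPM + 0.5) scale, late minus early factors came to 1.56, 1.57 and 1.75 with K382Q and 1.45, 1.46 and 1.56 with K382R. The lowest K382Q and the highest K382R library met at 1.56, and the difference of 0.14 shrank to 0.08 without K382Q replicate 3. The opposite changes of *Cebpa* and *Klf15* are averaged out in this score.

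The makeup of the C/EBP transcripts shifted too. *Cebpa* made up 41.5%, 42.0% and 48.6% of the summed TPM of the 4 C/EBP factors with K382Q and 59.6%, 60.6% and 55.5% with K382R. Their sum was 395, 457 and 373 TPM with K382Q and 511, 556 and 548 TPM with K382R, so the lower sum with K382Q went along with a lower *Cebpa* share. The TPM of *Cebpb* and *Cebpg* overlapped or nearly met between the mutants, and *Cebpd* was a minor part of the sum in every library.

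**Figure D3:**
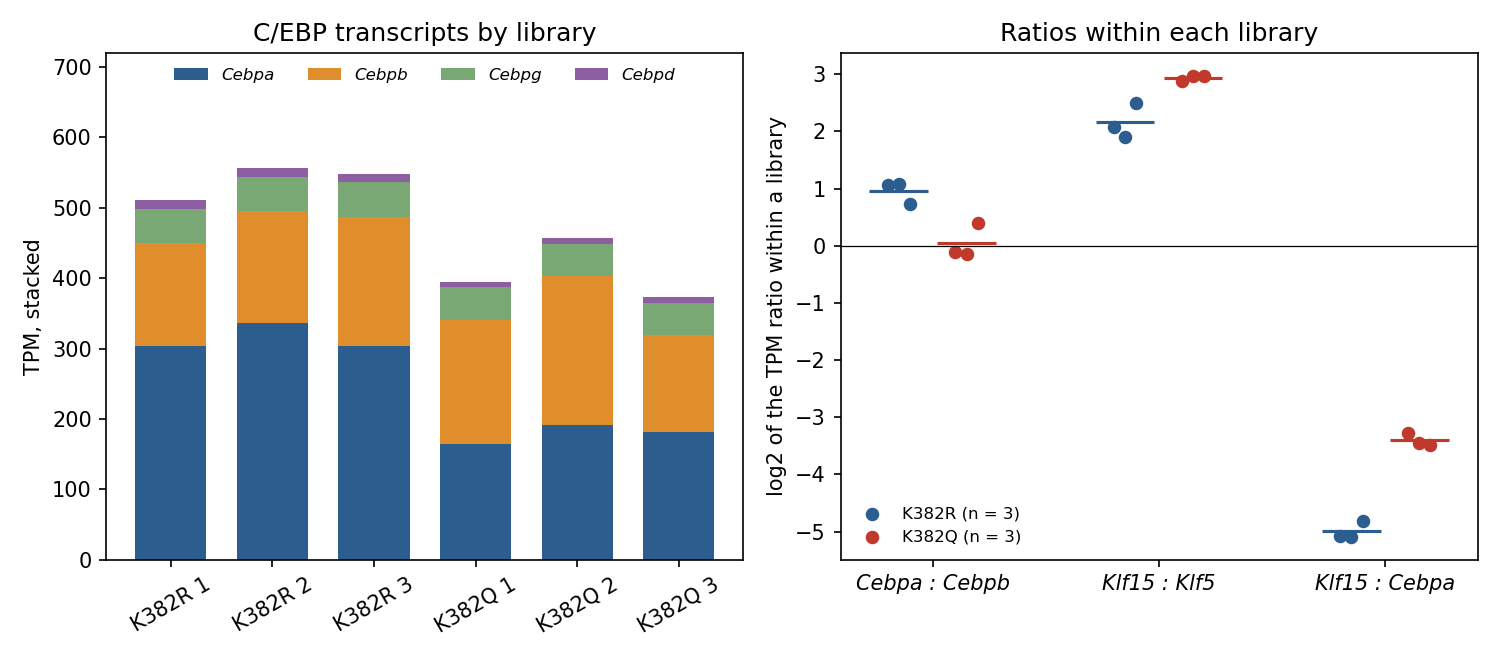
Left, stacked TPM of *Cebpa*, *Cebpb*, *Cebpg* and *Cebpd* in each library; right, log2 of the TPM ratios *Cebpa* to *Cebpb*, *Klf15* to *Klf5* and *Klf15* to *Cebpa* within each library, with lines at the means (n = 3 per mutant). The K382Q bars sum to 373 to 457 TPM and the K382R bars to 511 to 556 TPM, and none of the 3 ratios overlaps between the mutants.

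The order of the factors by mean TPM, a length-corrected level, differed by 1 exchange of neighbours. With K382R it ran *Cebpa*, *Cebpb*, *Cebpg*, *Ebf1*, *Klf4*, *Ebf2*, *Cebpd*, *Klf15*, *Klf5* and *Zfp467*, and no neighbours in it had overlapping ranges. With K382Q, *Cebpa* at 164 to 192 TPM and *Cebpb* at 138 to 211 TPM overlapped at the top, with *Cebpb* above *Cebpa* in replicates 1 and 2, as did *Ebf1* at 28.4 to 30.3 TPM and *Klf4* at 25.3 to 29.5 TPM, with *Klf4* above *Ebf1* in replicate 2. *Klf15* and *Cebpd* exchanged places: *Cebpd* was above *Klf15* in every K382R library and below it in every K382Q library. The order holds for TPM only. Listed coverage did not follow it throughout, being 18.1 to 29.2 per base for *Ebf1* and 60.8 to 103 for *Klf4* over all libraries.

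Genes around the factors were counted by list, against 11.1% higher and 36.9% lower among all genes tested, and 19.8% and 20.4% under median-ratio scaling. The lists share some genes, so their counts are not independent. Inhibitors of adipogenesis overlap with the C/EBP, KLF, zinc finger and glucocorticoid lists, and the KLF list overlaps with the glucocorticoid list. The relatives and regulators of the C/EBP proteins gave 4 higher and 2 lower genes of 10 tested, with a median log2 fold change of 0.19, and 7 higher and 2 lower under median-ratio scaling. Members of the tribbles family stood at both ends. *Trib3*, a stress-induced pseudokinase, was at 203 ± 9.54 TPM with K382Q and 121 ± 2.77 TPM with K382R (log2 fold change 0.75, limma adjusted p 6.35e-06), and *Trib1*, known for targeting C/EBPα for degradation, at 6.41 ± 0.498 and 10.9 ± 1.06 TPM (-0.73, limma adjusted p 0.000462). Of the other KLF genes 10 of 14 were tested, and 3 were higher and 4 lower (median log2 fold change -0.15, near that of all genes). Among called genes with a mean of at least 1 TPM, *Klf10* had the largest rise, from 72.7 ± 0.264 to 94.5 ± 2.4 TPM (0.37, limma adjusted p 6.11e-05), and *Klf6*, an early adipogenic Krüppel-like factor, the largest fall, from 40.7 ± 2.55 to 25.7 ± 1.7 TPM (-0.65, limma adjusted p 0.000131). The other EBF and zinc finger genes of commitment gave 5 lower and 0 higher of 6 tested, beside 36.9% lower of all genes, with a median of -0.36, and 2 lower and 0 higher under median-ratio scaling. The largest fall among those tested was that of *Zfp521*, an inhibitor of adipocyte commitment (-0.58, limma adjusted p 0.0301). It was at 0.944 ± 0.283 TPM with K382Q and 1.63 ± 0.103 TPM with K382R, so its mean reached 1 TPM with K382R only.

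Among 12 inducers and partners of the cascade, 2 were higher and 4 lower (median -0.05), which became 5 higher and 3 lower under median-ratio scaling. *Stat5a*, an activator of PPARγ expression, fell from 56.3 ± 0.473 to 36.7 ± 0.8 TPM (log2 fold change -0.61, limma adjusted p 9.07e-06), and *Fosl2* rose from 28.4 ± 0.401 to 35.8 ± 1.74 TPM (0.33, limma adjusted p 0.00086). Of 17 tested inhibitors of adipogenesis, 4 were higher and 8 lower (median -0.21), against 5 and 4 under median-ratio scaling. *Sox9*, a repressor of the early C/EBP genes, was at 7.05 ± 0.556 TPM with K382Q and 4.48 ± 0.151 TPM with K382R (0.60, limma adjusted p 0.000944), and the immediate early gene *Egr1* at 11.6 ± 1.34 and 25.3 ± 0.478 TPM (-1.10, limma adjusted p 2.92e-05).

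Genes known to be induced by glucocorticoids and by cAMP were counted separately, as the differentiation mix held a glucocorticoid and a cAMP-raising agent. All libraries received the same mix, so induction itself was not measured here. Of 10 glucocorticoid-induced genes, 8 were higher and 1 lower with K382Q, with a median log2 fold change of 0.41, beside 11.1% higher and 36.9% lower among all genes, and the count was 9 and 1 under median-ratio scaling, beside 19.8% and 20.4%. *Errfi1*, a feedback inhibitor of the EGF receptor, rose from 49.7 ± 1.97 to 72.8 ± 2.43 TPM (0.55, limma adjusted p 4.12e-05), whereas *Sgk1*, a glucocorticoid-induced kinase, fell from 76.6 ± 2.85 to 44.2 ± 1.99 TPM (-0.79, limma adjusted p 9.79e-06). *Klf15* and *Cebpd*, both also known as glucocorticoid-induced, were not in that list and moved in opposite directions. Of 9 tested cAMP-induced genes, 1 was higher and 6 lower, with a median of -0.41, and 1 and 5 under median-ratio scaling. The phosphodiesterases that degrade cAMP split, *Pde4d* being at 18.3 ± 0.227 and 11.0 ± 0.773 TPM (0.71, limma adjusted p 7.81e-05) and *Pde4b* at 4.62 ± 0.616 and 9.10 ± 1.53 TPM (-0.90, limma adjusted p 0.00114) with K382Q and K382R. The coverage listed for these genes was low for their TPM, at 0.161 to 0.34 and 0.134 to 0.359 per base.

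Downstream, 9 of 18 tested terminal adipocyte genes were higher and 4 lower with K382Q (median log2 fold change 0.17), against 11.1% and 36.9% of all genes tested. All 6 adipocyte markers counted above are also in this list, so the counts are not separate observations. The counts were 12 and 2 (median 0.32) under median-ratio scaling and 8 and 3 under quantile normalization, where the median was 0.04. *Cfd*, which encodes adipsin, rose from 206 ± 7.22 to 485 ± 18.7 TPM (1.23, limma adjusted p 6.92e-07), and *Adipoq*, which encodes adiponectin, fell from 360 ± 20.2 to 148 ± 1.2 TPM (-1.28, limma adjusted p 7.63e-07). Both are known C/EBPα and PPARγ target genes, and only *Adipoq* moved in the direction of *Cebpa*.

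**Figure D4:**
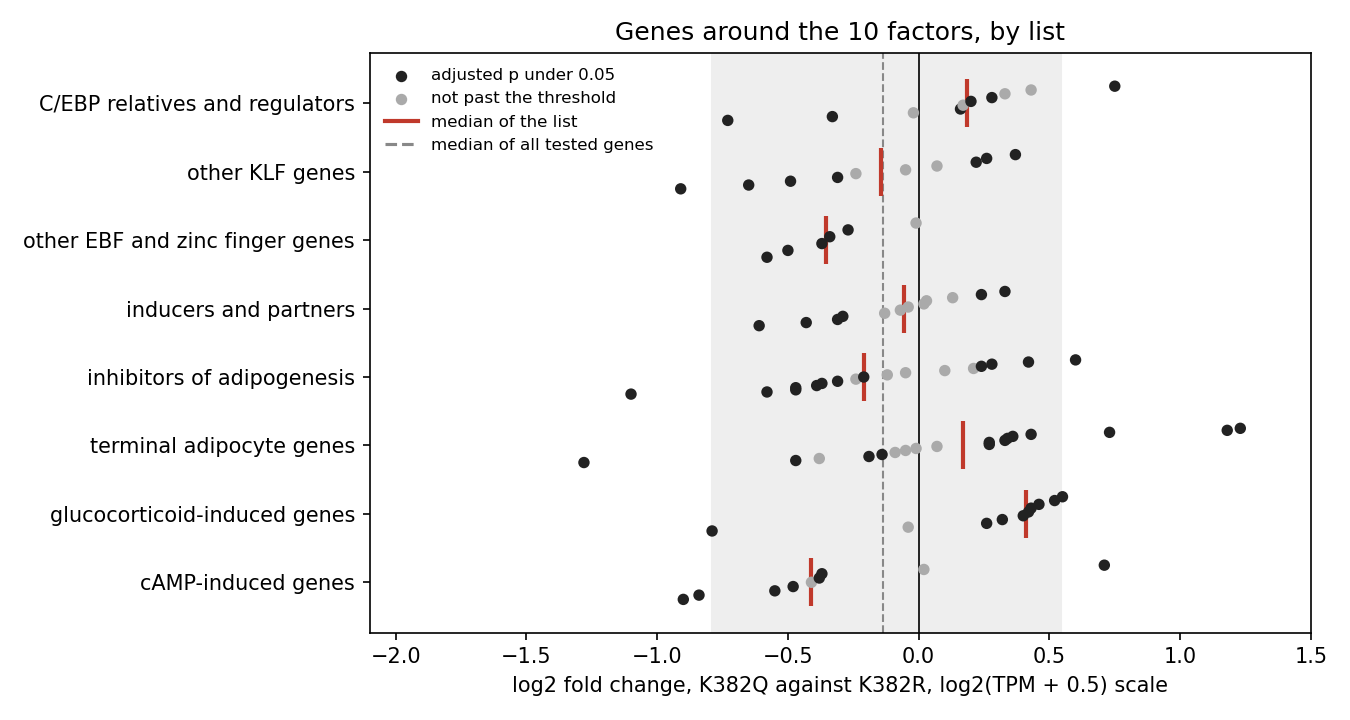
Log2 fold change, K382Q against K382R, of each tested gene in 8 lists around the factors, with genes past an adjusted p of 0.05 in black, the median of each list in red, the median of all genes tested (-0.14) dashed and the 5th to 95th percentile of all genes tested as a grey band. The glucocorticoid-induced list has its median at 0.41 and the cAMP-induced list at -0.41.

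*Cebpa*, *Klf15*, *Cebpd* and *Ebf1* were called with the same sign under all 17 alternative settings tried. Their log2 fold changes ranged from -0.87 to -0.66, from 0.68 to 0.89, from -0.69 to -0.48 and from -0.32 to -0.14. *Ebf1* had the least room, with limma adjusted p-values up to 0.0392. Of the others, *Klf4* and *Cebpg* were each called under 1 setting, and *Cebpb*, *Klf5*, *Ebf2* and *Zfp467* under none of the 17.

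**Figure D5:**
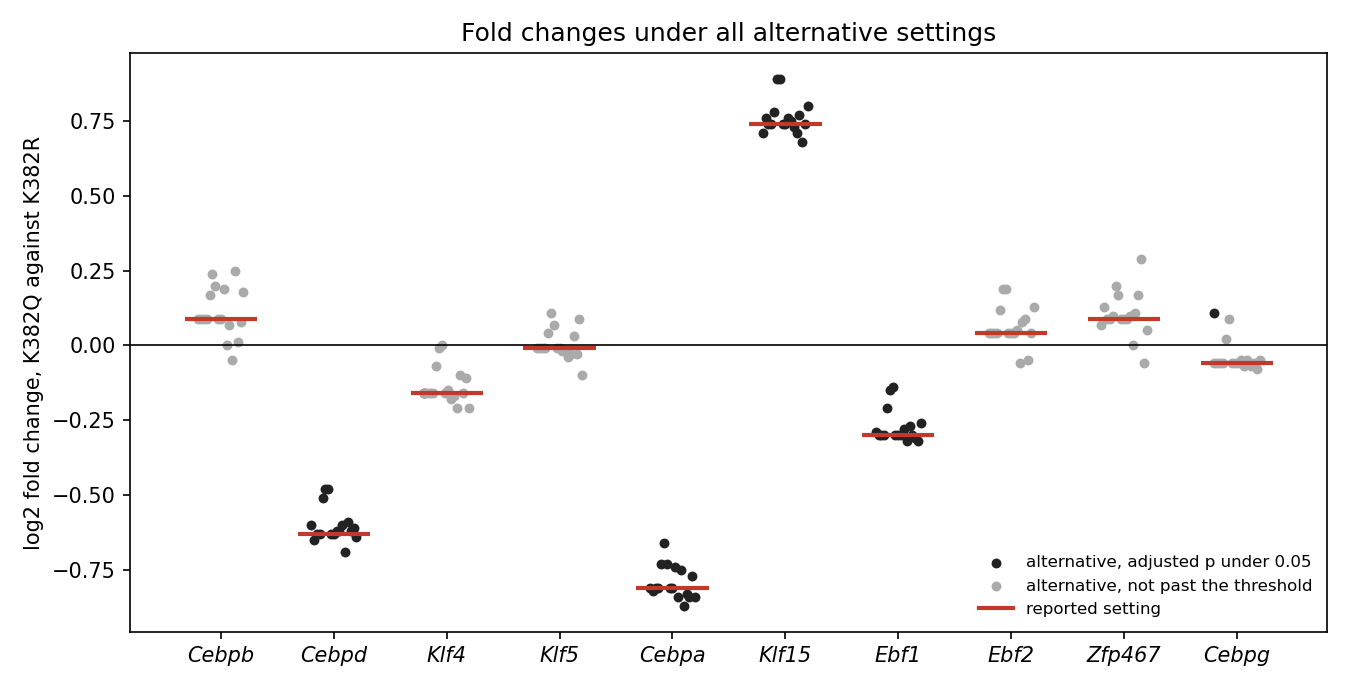
Log2 fold change of each factor under 17 alternative settings (points, black where the adjusted p was under 0.05) and in the setting reported (red line). The points of *Cebpa*, *Cebpd* and *Ebf1* all lie below 0 and those of *Klf15* all above 0.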

How the data were processed

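PPARγ2K382Q- and PPARγ2K382R-overexpressing SVF cells (3 libraries each, 2 days of beige differentiation) were sequenced as paired reads from NEBNext Ultra libraries. The authors trimmed reads with TrimGalore, mapped them with HISAT2 to the GRCm39 build and estimated gene abundances with StringTie. The annotation release is not given in the sources used here. The deposited TPM, scaled by the authors to 1 total per library, was the value analysed. The deposited FPKM, scaled to aligned sequence, served as an alternative, and the deposited coverage (mean read depth per base) is given as listed. Whole read counts were not used here. Aligned sequence was taken as the most common ratio of coverage to FPKM among genes with an FPKM above 1. Up to 5 repeated gene IDs per library were summed.

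TPM is a share of a library, so a gene also moves when others do. The fit took genes that reached a TPM of 0.5 in 3 or more of the 6 libraries, and was made with limma 3.58.1 (R 4.3.3) with an intensity trend and a pseudocount of 0.5, which understates changes of low genes. P-values were adjusted over all 15426 genes by Benjamini-Hochberg. The script was tested on simulated data. With 3 libraries against 3, an exact permutation test cannot go below a two-sided p of 0.1 and was not used. Alternatives were other pseudocounts (1 and 0.1), filters (none, or a TPM of at least 1), FPKM, median-ratio scaling, quantile normalization, no trend, a replicate block, leaving out each library, and removal of GC and length trends (span 0.3). The GC and length alternatives were chosen after seeing the data.

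The factors and gene lists were chosen with earlier results of these data known. All 10 factors are named, with the called gene of largest rise and of largest fall in each list at a mean TPM of at least 1, *Pparg*, and cell type markers as counts and sums. *Adgre1*, *Acta2*, *Des*, *Fabp4*, *Ly6a*, *Spidr* and *Peds1* were added outside that rule. No 2 libraries shared identical values beyond 0.0117% of genes. Coordinates are those of the deposited tables, and the factors' gene IDs and coordinates were identical in GENCODE mouse release 39 for 3 of them (*Cebpa*, *Cebpb* and *Cebpd*).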

Additional observations from a re-analysis of the deposited data

How the results depend on the processing

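The 4 factors called kept their direction and their call under all 17 alternatives. The number of all genes past the threshold and over 2-fold was 599, and was 379 with FPKM, 443 with a pseudocount of 1 and 889 with a pseudocount of 0.1. Signs of factors that did not pass the test were less stable. With FPKM *Klf5* was at 0.04 and *Cebpg* at 0.02, with median-ratio scaling at 0.11 and 0.09, and with quantile normalization at 0.07 and 0.11 (adjusted p 0.0393 for *Cebpg*, limma), where *Klf4* was at 0.00. Leaving out 1 library moved *Cebpb* between -0.05 and 0.25, *Klf5* between -0.10 and 0.09, *Ebf2* between -0.06 and 0.13 and *Zfp467* between -0.06 and 0.29, on the log2 scale. The lower count of the commitment list, 5, was 3 without filter and without K382Q replicate 2, K382R replicate 2 or K382R replicate 3. Removing the GC trend left *Cebpa* at -0.74. Replicate numbers did not pair the libraries: correlations of deviations between libraries with the same number were -0.02, 0.05 and 0.02. With a replicate block, 5 factors were called, *Klf4* being the added one (-0.16, limma adjusted p 0.033), and 6987 of all genes instead of 7415. Low levels limit *Zfp467* and *Klf5*. Listed coverage, lower still for the called genes *Pde4b* and *Pde4d*, does not rank genes by depth.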
